A study of Mus musculus with 12 samples.

Results

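The Affymetrix Mouse Exon 1.0 ST array carries short probe sets, most of them aimed at single exons, and 10493 of its deposited exon-level probe sets are described here. They are the probe sets to which the platform annotation gives no gene symbol and whose ID is not also a row of the deposited gene-level table, and they are called the unnamed probe sets below. They made up 4.57% of the 229581 probe sets of the exon-level table. Cerebellar total RNA came from 6 female mice at postnatal day 30, and each mouse was hybridised to 1 array. The 3 mutant mice were NMF291–/–, a line with 5 nucleotides deleted from Rnu2-8, a gene for U2 snRNA, and the 3 controls were wild type, matched for age and sex and called biological replicates in the series text. The labels name no treatment other than the mutation, and the deletion is described as carried by the mouse rather than placed in one cell type.

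U2 snRNA is the RNA core of the U2 particle of the spliceosome. It pairs with the branch site near the end of an intron and so helps to choose the splice site that follows. Exon arrays of this kind were designed on messenger RNAs, expressed sequence tags and predicted exons, so a probe set can sit in sequence that carries no gene symbol. Such a probe set reports hybridised signal only. Its target was not analysed here, so none of the values below is assigned to a gene, a chromosome, an exon or an intron, and no probe sequence is shown. Probe set IDs gave no placement either: of neighbouring IDs that both have a symbol, 0.0126% shared it, and the ID after a member was itself a member in 4.25% of cases.

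The labelled tissue was checked on the gene-level table, where all measured granule neuron markers (7), Purkinje cell markers (6) and oligodendrocyte markers (4) lay at or above the table's median signal of 8.04 (log2), and neither of the 2 measured forebrain neuron markers did. Microglia markers differed between the genotypes: 10 of 11 were higher in the mutant and none lower (3.94% of all 23332 gene-level rows were called higher). After quantile normalization and after median centring 9 were called higher, and C1qc was not (0.0531 and 0.0518, adjusted p by limma). The microglia list mean was 8.03 to 8.10 on the wild-type arrays and 8.95, 9.59 and 9.11 on mutant arrays 1, 2 and 3. Of 7 granule neuron markers, Gabra6, a GABA receptor subunit, was lower in the mutant (-0.46, adjusted p = 0.0165 by limma) and Grin2c, an NMDA receptor subunit, higher (0.33, adjusted p = 0.0398 by limma), a call lost under both other scalings of the arrays (0.0525 and 0.0801 by limma). Of 5 astrocyte and Bergmann glia markers 1 passed, with a list median difference of 0.02: Gfap, the intermediate filament protein of astrocytes, averaged 9.17 on the wild-type arrays and 10.64 on the mutant arrays (adjusted p = 0.0272 by limma). Choroid plexus markers had a list mean of 8.10 on mutant array 3, against 9.27 and 9.31 on the other mutant arrays and 9.25 to 9.49 on the wild-type arrays, and none of 7 passed the test. The part of these cell types in any value of the unnamed probe sets was not tested. In RNA of whole tissue, more or fewer cells of a type and more or less RNA per cell cannot be told apart.

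The unnamed probe sets spread more widely in signal than the table as a whole. Their mean signal over the 6 arrays had a median of 8.16 (log2), with its middle part, from the 25th to the 75th percentile, between 6.48 and 9.74. Over all probe sets the median was 8.55 and the middle part ran from 7.06 to 9.87. The table's probe sets were split by mean signal into 4 classes of equal size, class 1 being the dimmest. Of the unnamed probe sets 32.7% fell in class 1, 23.9% in class 2, 20.4% in class 3 and 23.1% in class 4. The wide spread was not theirs alone. Among the 4446 probe sets with several gene symbols the middle part ran from 5.61 to 9.63, and 40.6% fell in class 1. Both ends of the table held more of them than their 4.57% share: they were 245 of the 2296 probe sets (10.7%) in the highest 1% of signal and 168 of the 2296 (7.32%) in the lowest 1%. Signal depends on the probes as well as on the RNA, so this order is not an order of RNA abundance.

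**Figure D1:**
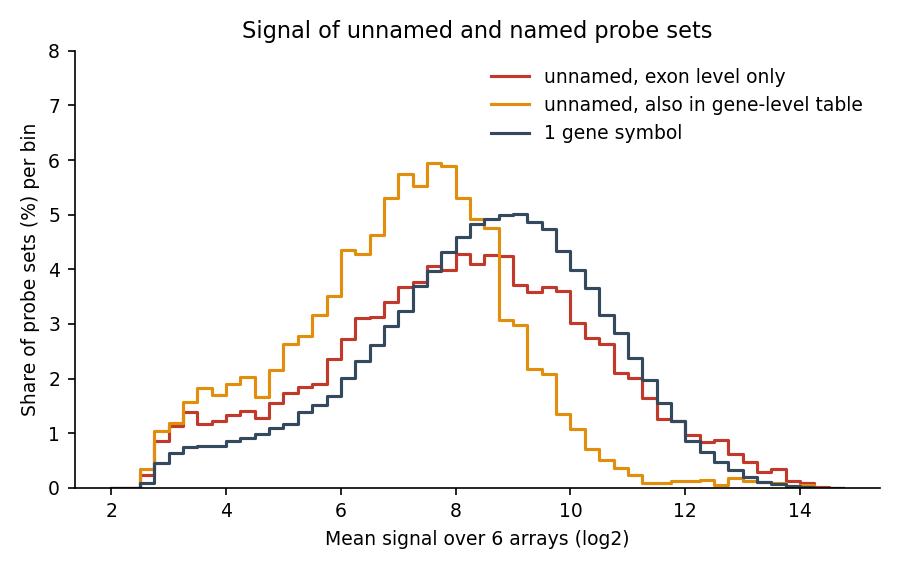
Share of probe sets (y axis, percent per bin of 0.25 log2) by mean signal over the 6 arrays (x axis, log2) for the unnamed probe sets listed at exon level only, the unnamed ones also listed at gene level, and those with 1 gene symbol. The exon-level-only group has a median of 8.16 and reaches further into both tails than the group with 1 symbol.

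The probe set with the highest mean signal in the whole table was one of the unnamed ones. Probe set 5419883 read 14.44, 14.44 and 14.41 (log2) on wild-type arrays 1 to 3 and 14.46, 14.50 and 14.49 on mutant arrays 1 to 3. Probe set 4758610 read 14.35, 14.38 and 14.37 in wild type and 14.32, 14.27 and 14.31 in the mutant. Probe set 4374355 read 14.26, 14.16 and 14.20 in wild type and 14.24, 14.25 and 14.24 in the mutant. The genotypes overlapped for 4374355 and were apart for the other 2, but differences were small in all 3, at 0.06, -0.07 and 0.04. The 95% intervals were -0.12 to 0.23, -0.24 to 0.11 and -0.14 to 0.22. These are widened by limma's variance prior for the whole table. The SEs were 0.0724, 0.0725 and 0.0748, and the within-genotype SDs only 0.0196, 0.0205 and 0.0355.

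Between arrays, the unnamed probe sets followed the rest of the table. Their median signal was 8.16, 8.16 and 8.13 on wild-type arrays 1 to 3 and 8.16, 8.21 and 8.17 on mutant arrays 1 to 3. Relative to the same array's median over all probe sets it was -0.404 to -0.385 on the 6 arrays, and the genotypes overlapped. Across these probe sets, which are not independent, the correlation between 2 arrays was 0.988 to 0.992 within a genotype and 0.986 to 0.989 between genotypes. The within-genotype SD of an unnamed probe set had a median of 0.159 (log2, 3 arrays per genotype), against 0.146 over all probe sets.

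The comparison of mutant with wild-type mice asks whether RNA detected by probe sets without a gene symbol differs when a U2 snRNA gene is mutated. Of the 10493 unnamed probe sets, 84 (0.801%) passed an adjusted p of 0.05 by limma, where adjustment ran over the whole table and 1.00% of all probe sets passed. The mutant was higher in 56 of them (0.534%, against 0.603% of all probe sets) and lower in 28 (0.267%, against 0.402%). Applying the whole table's share of calls in each signal class to these probe sets would give 99.1 calls, so 84 was near the background and no larger than it. The median difference, mutant minus wild type, was 0.0022 (log2) over the unnamed probe sets and 0.0153 over all probe sets. A positive difference was seen in 50.5% of the unnamed probe sets, against 53.3% of all. The count rests on all 6 arrays, as does that of the whole table. With any 1 array left out, 0 of the unnamed probe sets and 0 of all probe sets passed. In those fits 1284 to 1691 of the unnamed probe sets had an unadjusted p under 0.05 (12.2% to 16.1%, against 13.6% to 17.4% of all). With all arrays it was 1588 of them, or 15.1%, against 16.9% of all probe sets.

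The share of higher calls was 66.7% of the 84, against 60% of all calls in the table, and was lower in other settings. It was 56.5% of 322 calls at an adjusted p under 0.1 in the same fit, against 60.4% of all calls. After median centring it was 57.8% of 90 calls, against 50.9%. When limma's variance prior followed the signal, with robust settings, 586 unnamed probe sets passed (5.58%, against 6.78% of all). Of these 291 were higher and 295 lower, so 49.7% were higher, against 59.4% of all calls. Among probe sets at or above the table's median signal, 463 unnamed ones passed (10.1%, against 11.7% of all). Of these 227 were higher and 236 lower, so 49% were higher, against 58.9% of all calls. The share was thus above that of the table in some settings and below it in others. The trended and robust fit held 81 of the 84 calls. The signal filter held 62, which were all of the calls in signal classes 3 and 4, the only classes it tested. In each alternative that gave any call, the share of unnamed probe sets called was below that of the table.

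**Figure D2:**
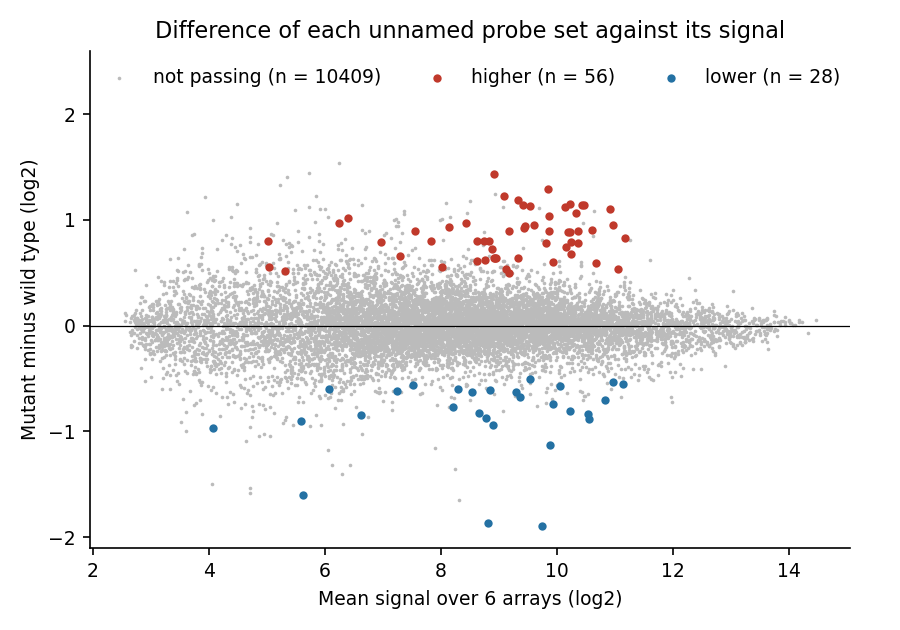
Difference between genotypes (y axis, mutant minus wild type, log2) against mean signal (x axis, log2) for each of the 10493 unnamed probe sets, with the 56 called higher and 28 called lower in colour. Differences scatter around 0 at all signals and narrow towards high signal, and the brightest call has a signal of 11.18.

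By size, the unnamed probe sets also lay near the rest of the table. A difference of 1 or more on the log2 scale was seen upwards in 45 (0.429%, against 0.362% of all probe sets) and downwards in 19 (0.181%, against 0.156%), of which 14 and 4 passed the test. The genotypes did not overlap in 1193 with the mutant higher (11.4%, against 14.0% of all) and in 1073 with the mutant lower (10.2%, against 10.1%). All 84 called probe sets were among these. None of the unnamed probe sets went from a wild-type mean under the table's 25th percentile of signal (7.06) to a mutant mean at or above its 50th (8.55), which 16 of all probe sets (0.00697%) did, and none went the other way. For 6055 (57.7%, against 60.4% of all) the 95% interval of the difference lay wholly within -0.5 and 0.5. The margin on either side of the difference had a median of 0.292 before any adjustment for the number of probe sets, and no difference under 0.498 in size passed the adjusted threshold with 3 arrays per genotype.

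Calls were unevenly spread over the signal range. In class 1 of signal 11 of 3426 unnamed probe sets passed (0.321%, against 0.472% of all probe sets in that class) and in class 2 it was 11 of 2505 (0.439%, against 0.798%). In class 3 there were 32 of 2137 (1.5%, against 1.28%), 23 of them higher, and in class 4 there were 30 of 2425 (1.24%, against 1.47%), 21 of them higher. The median within-genotype SD fell from 0.271 in class 1 to 0.084 in class 4. The smallest difference that passed was 0.498 in size and came from class 3.

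**Figure D3:**
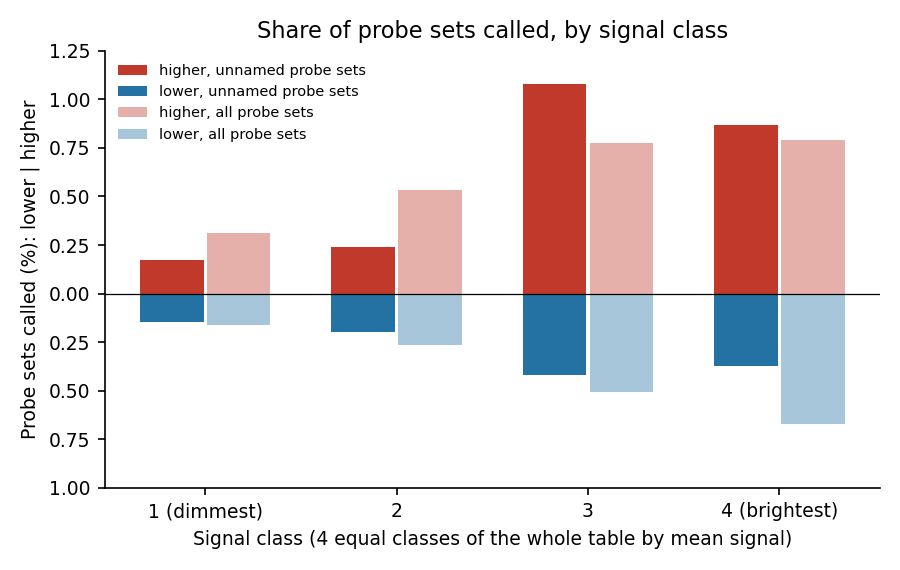
Share of probe sets called (y axis, percent, higher in the mutant above the line and lower below it) in each of the 4 classes of the table's mean signal (x axis), for the unnamed probe sets (solid) and all probe sets (pale). In class 3, 1.08% of the unnamed probe sets were called higher against 0.777% of all, and in classes 1, 2 and 4 the shares were 0.175%, 0.240% and 0.866% against 0.310%, 0.531% and 0.793%.

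The 56 unnamed probe sets called higher rose by 0.50 to 1.43 (log2), with a median of 0.86, or 1.81-fold. Of them 44 lay in signal classes 3 and 4. Of all 1384 probe sets called higher, 446 lay in class 3 and 455 in class 4. The largest called rise was that of probe set 5130264. It read 8.32, 8.23 and 8.06 on wild-type arrays 1 to 3 and 9.52, 9.74 and 9.64 on mutant arrays 1 to 3. All mutant arrays were above all wild-type arrays, as its selection among calls without overlap required, and the gap was wider than either group's spread. The rise was 2.70-fold, or 1.43 ± 0.11 (log2, SE), with an adjusted p of 0.0148 by limma.

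Probe set 4832952 read 9.44, 9.12 and 9.04 in wild type and 10.53, 10.44 and 10.49 in the mutant. The mutant arrays were within 0.1 of each other and the wild-type arrays were more spread, with a rise of 2.44-fold (adjusted p = 0.0202 by limma). Probe set 5368193 had the tightest mutant values of the 5 largest called rises, 9.91, 9.93 and 9.94, against 8.81, 8.62 and 8.76 in wild type. It rose 2.28-fold, or by 1.19 ± 0.08 (log2, SE; adjusted p = 0.0145 by limma, which was the lowest among the unnamed probe sets).

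In the remaining 2 of these 5, mutant array 2 stood above the other mutant arrays. Probe set 4491158 read 8.48 on all 3 wild-type arrays and 9.45, 10.08 and 9.60 on mutant arrays 1 to 3, a 2.35-fold rise (adjusted p = 0.0348 by limma). Probe set 4699358 read 9.73, 9.69 and 9.54 in wild type and 10.56, 11.22 and 10.64 in the mutant, a 2.22-fold rise (adjusted p = 0.0481 by limma). Mutant array 2 is also the array with the highest microglia list mean, 9.59, and the highest median over all probe sets, 8.60. Among the mutant arrays it was also highest for the astrocyte and Bergmann glia (11.09), choroid plexus (9.31) and forebrain neuron (7.22) lists. It was not highest for the granule neuron, Purkinje cell, oligodendrocyte or blood lists. None of these overlaps was tested.

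**Figure D4:**
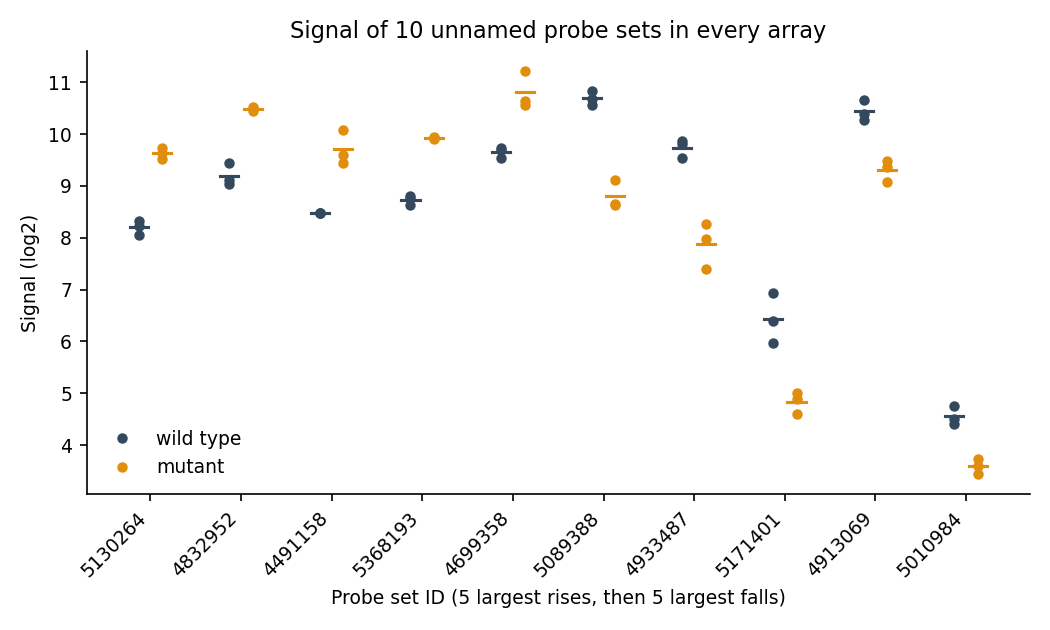
Signal (y axis, log2) of the 5 unnamed probe sets with the largest called rises and the 5 with the largest called falls (x axis) on every array, wild type and mutant side by side, with a bar at each mean of 3 arrays. The genotypes do not overlap in any of the 10, as their selection required, and the falls 5089388 and 4933487 have the widest gaps.

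The 28 unnamed probe sets called lower fell by 0.50 to 1.89 (log2), with a median of -0.76, or 1.69-fold. Of them 18 lay in signal classes 3 and 4. Of all 923 probe sets called lower, 291 lay in class 3 and 386 in class 4. The largest fall was larger than any called rise. Probe set 5089388 read 10.56, 10.82 and 10.68 on wild-type arrays 1 to 3 and 8.63, 9.11 and 8.65 on mutant arrays 1 to 3. It was 3.71-fold lower in the mutant, a difference of -1.89 ± 0.15 (log2, SE; adjusted p = 0.0181 by limma). The gap between the genotypes was wider than the spread within either.

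Probe set 4933487 read 9.54, 9.81 and 9.87 in wild type and 7.39, 8.26 and 7.97 in the mutant. Its mutant arrays were spread more (SD 0.44, n = 3) than its wild-type arrays (SD 0.18, n = 3), and it was 3.64-fold lower (adjusted p = 0.0293 by limma). Probe set 4913069 read 10.27, 10.66 and 10.39 in wild type and 9.08, 9.37 and 9.49 in the mutant, where it was 2.18-fold lower (adjusted p = 0.0345 by limma). In both, every mutant array lay below every wild-type array, as their selection among calls without overlap required.

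The other 2 of the 5 largest called falls came from dim probe sets in signal class 1. Probe set 5171401 read 5.97, 6.39 and 6.93 in wild type and 5.01, 4.60 and 4.89 in the mutant, 3.02-fold lower (adjusted p = 0.0451 by limma). Probe set 5010984 read 4.41, 4.51 and 4.75 in wild type and 3.44, 3.74 and 3.59 in the mutant, 1.95-fold lower (adjusted p = 0.0334 by limma). Whether either signal stood above background was not given by the deposited values.

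Some of the widest differences did not pass in this fit, and all 4 described next passed with the trended and robust variance prior (adjusted p of 0.0035 to 0.0381 by limma). Probe set 4784966 read 6.14, 4.97 and 5.30 in wild type and 7.03, 7.15 and 6.86 in the mutant, a difference of 1.54 with an adjusted p of 0.0656 by limma. Probe set 5205779 read 4.17, 5.64 and 5.21 in wild type and 6.73, 6.50 and 6.12 in the mutant (difference 1.45, adjusted p = 0.125 by limma). Both had no overlap between genotypes but a wide wild-type spread, with SDs of 0.60 and 0.76 (n = 3).

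Downwards, probe set 4470441 read 8.80, 9.31 and 9.29 in wild type and 7.02, 8.16 and 7.28 in the mutant (difference -1.65, adjusted p = 0.0653 by limma). Probe set 5402385 read 5.98, 5.00 and 5.53 in wild type and 4.17, 4.67 and 2.91 in the mutant (difference -1.59, adjusted p = 0.161 by limma). In these the mutant arrays were the more spread, with SDs of 0.60 and 0.90 (n = 3).

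The least reproducible unnamed probe sets were dim ones. Probe set 5214078, with the widest within-genotype SD (1.79), read 4.41, 3.20 and 7.54 in wild type and 4.85, 3.17 and 5.43 in the mutant. Probe set 4667690 read 5.68, 3.83 and 4.58 in wild type and 5.75, 6.53 and 2.95 in the mutant. Probe set 4380271 read 6.34, 5.44 and 3.44 in wild type and 3.36, 5.92 and 5.04 in the mutant. The genotypes overlapped in all 3, and the difference of each changed sign when single arrays were left out.

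No call was made at the bright end in the main fit, whose variance prior did not follow the signal. Calls at the bright end under the other settings were not counted. Of the 703 in the highest 5% of the table's signal (11.58 and above), a class looked at after the values were seen, 0 passed by limma, where 0.828% of all probe sets in that class did. Their differences ran from -0.73 to 0.62 and had a median of -0.01. An unadjusted p under 0.05 was seen in 79 of the 703, beside 1990 of all 11480 probe sets in that class. In the highest 1% of signal, 0 of 245 passed, against 0.218% of all probe sets there. At an unadjusted p under 0.05 there were 11 of the 245, beside 214 of all 2296. The margin of the 95% interval in that 1% had a median of 0.188, the narrowest of the signal classes examined.

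The unnamed probe sets that are also rows of the gene-level table, 5363 in number, are the group most like these by annotation. They were dimmer, with a median signal of 7.17 against 8.16, and only 4.87% of them lay in signal class 4. Of them 58 passed (1.08%), all 58 higher in the mutant, whereas the exon-level-only group had 28 of its 84 calls lower. Their median difference was 0.09 (log2) and 65.2% had a positive difference, against 0.0022 and 50.5%. After median centring of the arrays these medians were 0.06 and -0.03, with 51 higher and 0 lower calls against 52 higher and 38 lower. After quantile normalization they were 0.06 and -0.02, with 52 higher and 0 lower against 51 and 33. The difference between these groups of probe sets was not tested, since probe sets are not replicates of a genotype. Probe sets with 1 gene symbol, 209279 in number, had a median difference of 0.01, with 1240 higher and 885 lower. Median centring turned these to -0.02, with 1002 higher and 1039 lower. Quantile normalization gave -0.01, with 1093 and 996.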

How the data were processed

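The authors deposited 1 log2 value per probe set and array, used as given; the scale is taken as log2 because the values run from 2.32 to 14.5. How the authors corrected background, normalized and summarised is not stated in the labels. The build, mm8, comes from the submitters' processing notes. Per the labels' protocols, TRIzol extracts of total RNA were labelled with the GeneChip WT Terminal Labeling kit. The gene-level table summarises the same arrays, so it added no replicates and served for cell type markers, named through the platform annotation and a RefSeq table.

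Mutant minus wild type was tested over all 229581 probe sets with limma 3.58.1 (lmFit, eBayes, two-sided) in R 4.3.3, with Benjamini-Hochberg adjustment over the whole table, a threshold of 0.05, no covariate and no filter. Scripts were tested on simulated data. The members, lists and tests were chosen with earlier results of these data known. Probe sets named are the 5 largest rises and 5 largest falls among calls without overlap, the 3 of highest signal, the 3 of widest within-genotype SD and the 2 largest differences in each direction that did not pass. As alternatives, the fit was repeated with a replicate block, with filters at the 25th and 50th percentile of signal, with a trended and robust variance prior, after quantile normalization or median centring, with array weights, at an adjusted p of 0.1, and without each array. Arrays give no counts, so their number limits precision. Plots were made with matplotlib 3.10.9 (Python 3.11.15).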

Additional observations from a re-analysis of the deposited data

How the results depend on the processing

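The count of unnamed probe sets called, 84 with 56 higher and 28 lower, moved by more than 1.5 times under the alternatives listed next. A filter at the 25th percentile of signal (172186 probe sets tested) gave 322, 180 higher and 142 lower (4.56%, against 4.95% of all tested). One at the 50th (114791 tested) gave 463, 227 higher and 236 lower (10.1%, against 11.7%). Trend and robust eBayes settings gave 586, 291 higher and 295 lower (5.58%, against 6.78%). An adjusted p under 0.1 gave 322, 182 higher and 140 lower (3.07%, against 3.57%). With any 1 array left out, by construction a smaller comparison, the count was 0 in both directions, as for all probe sets. With the replicate block it was 0 higher and 0 lower. The replicate numbers were not taken as pairs: deviations of same-numbered arrays over all probe sets correlated at -0.007, -0.024 and 0.014. With the block 0 of all probe sets passed by limma, beside 34378 at an unadjusted p under 0.05, 1467 of them unnamed. Quantile normalization gave 84 calls (0.801%, against 0.985% of all probe sets), median centring 90 (0.858%, against 0.965%) and array weights 102 (0.972%, against 1.14%). The median difference, 0.0022, was -0.0295 after median centring and lay between -0.0011 and 0.0112 with single arrays left out.

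The 10 probe sets named for the largest called rises and falls kept their direction in all 60 leave-one-array-out values, with adjusted p-values of 0.0688 to 0.147, none passing, and had 0.141 to 0.152 with the block. Under the other 7 alternatives 65 of 66 values passed, those at the 0.1 threshold by selection. The signal filters left out 5171401 and 5010984, and 4699358 had an adjusted p of 0.0501 with array weights. Of the 4 largest differences that did not pass, all passed with trend and robust eBayes settings; 4470441 also passed after the 25th-percentile filter (adjusted p = 0.0192), 4784966 with array weights (0.0467), and these 2 at an adjusted p under 0.1. Probe set 4374355, not passing, was at -0.0090 after quantile normalization. With single arrays left out, probe set 4380271 ran from -1.11 to 0.41 (0.41 without mutant array 1, 0.34 without wild-type array 1), 5214078 from -1.49 to 0.67 (0.09 without mutant array 2, 0.67 without wild-type array 3) and 4667690 from -0.35 to 1.44 (-0.35 without mutant array 2, -0.05 without wild-type array 2). The cause of these shifts was not tested. With 3 arrays per genotype and no deposited detection value, signal over background limits the dim probe sets.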
